A study of Mus musculus with 9 samples.

Results

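The S100a genes and the genes of the cornified envelope were examined in RNA of hair follicle stem cells from mice on 2 diets. The set holds 54 of the 35006 gene symbols in the count tables, chosen by a rule on gene symbols: those that begin with S100a, Sprr or Lce and a digit, together with Lor, Flg, Flg2, Ivl, Tgm1, Tgm3 and Cnfn. It comprises 13 S100a genes, 16 Sprr genes, 18 Lce genes and 7 other barrier genes. All 9 libraries came from CD34+ alpha6+ cells sorted from C57BL/6J mice, housed one to a cage, with no transgene, knockout or irradiation named for any sample. The labels name 2 suppliers and 2 animal facilities without tying a library to either. In 5 libraries the mice ate without limit (ad libitum, AL), and in 4 they were given each day 70% of what AL mice matched for body weight and gender had eaten (dietary restriction, DR). Each sort used 3 mice of a group together, and the labels give neither the age of the mice nor the duration of the diet. They do not say whether every library had a pool of its own, so each p-value rests on the spread among these libraries, and that spread may be technical.

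The cornified envelope is the protein shell that replaces the membrane of keratinocytes as they die at the skin surface. Involucrin is laid down early, loricrin and the small proline-rich (SPRR) and late cornified envelope (LCE) proteins reinforce it, transglutaminases cross-link it, and filaggrin bundles the keratin filaments inside. S100 proteins are small calcium-binding proteins; several lie beside the envelope genes in the epidermal differentiation complex, are made by basal as well as by differentiated cells, and act through partners such as the annexins. Bulge stem cells, the quiescent cells marked by CD34 and alpha6 integrin, are undifferentiated and are not known to build an envelope.

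Library totals ran from 26119459 to 33559312 counts over genes, and the members held 0.258% to 0.441% of them. Of the 54 members 36 were tested and 18 fell below edgeR's filter on low counts, 4 of which had no read in any library. Levels below are CPM, read counts scaled to a common library size, after TMM scaling, a correction for differences in library composition. The sorted cells carried bulge markers. The summed level of 9 markers, among them Cd34, Itga6 and Krt15, was 27401 to 38354 CPM under AL and 20742 to 22169 CPM under DR. Of the 9 markers 5 passed the test, all lower in DR, where 21.7% of all tested genes were lower. Most of that sum was Krt5 (means of 13146 and 6990 CPM under AL and DR) and Krt15 (12365 and 8498 CPM). Cd34 itself averaged 1083 and 479 CPM. In AL replicate 5 that sum was the highest of the 9 libraries and the summed envelope genes were the lowest.

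All members that passed between the diets were S100a genes. Of the 36 tested members 5 passed edgeR's quasi-likelihood test (Benjamini-Hochberg adjusted p under 0.05 over all 15447 genes tested), all lower in DR: S100a14, S100a1, S100a16, S100a4 and S100a13. That is 13.9% of the tested members, where 40.7% of all tested genes passed. Of the 10 tested S100a genes it is 50%, near that background. Lower calls alone were 21.7% of all genes tested. No member passed in the other direction, where 19.0% of all genes did; 1 member did at an unadjusted p under 0.05 (Lce1m), which also passed by DESeq2 and not by limma-voom. The median log2 fold change of the tested members was -0.10, against -0.02 for all genes tested.

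**Figure D1:**
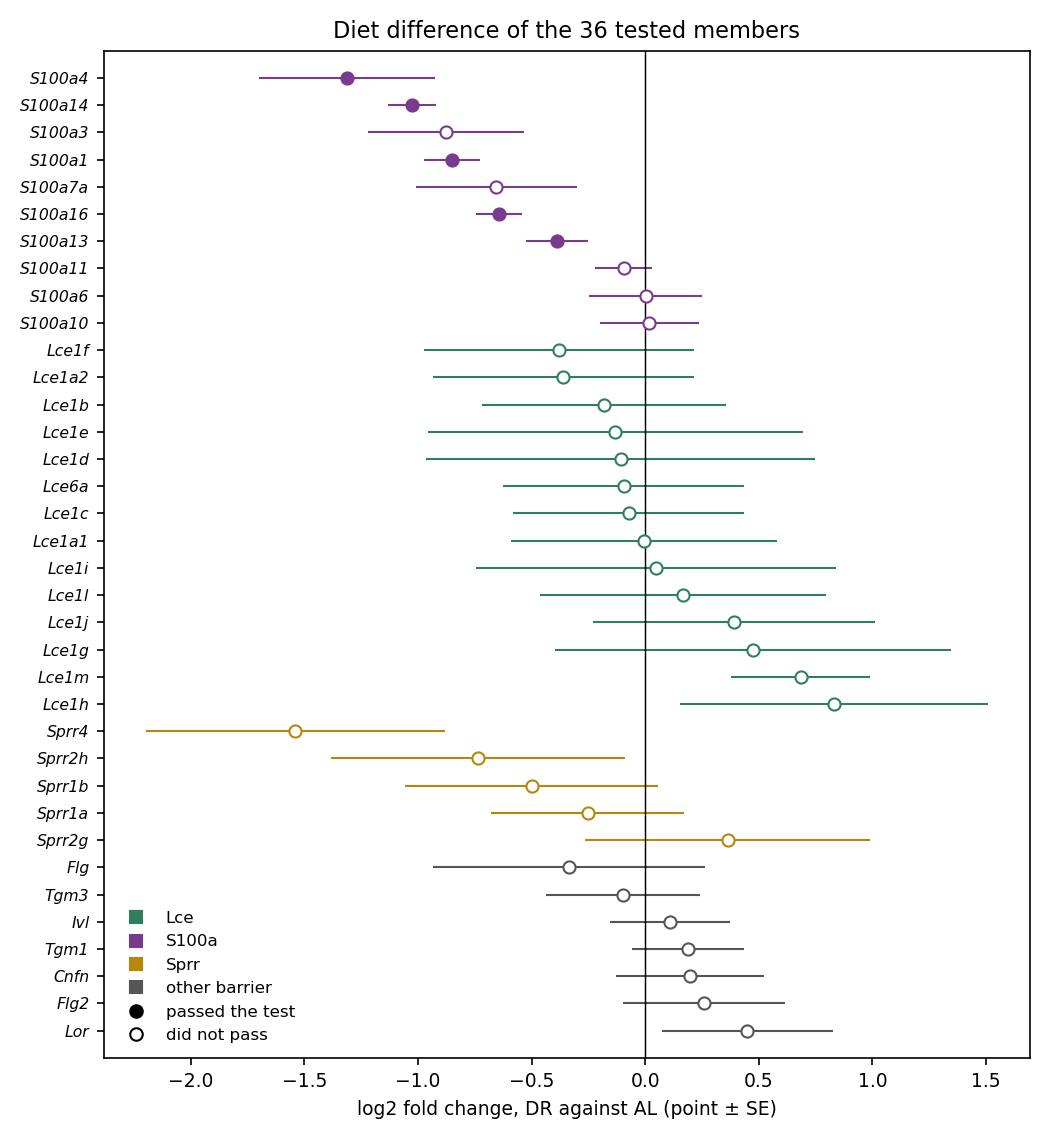
Log2 fold change of DR against AL for each of the 36 tested members, with bars of 1 standard error (SE) to either side, coloured by family; filled points passed the test. The filled points are 5 S100a genes, all to the left of 0, while the Lce genes straddle 0 with wide bars.

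S100a14, an S100 protein of epithelia, was the member with the smallest p. Its level was 227, 245, 279.5, 311 and 258 CPM in AL replicates 1 to 5 and 136, 119, 128 and 135 CPM in DR replicates 1 to 4. The groups did not overlap, which held for 3 of the 36 tested members, all higher in AL, and for 32.9% of all genes tested in either direction. The mean fell from 264 ± 32.5 to 129.7 ± 7.95 CPM (± SD, n = 5 and 4; a log2 change of -1.03 with SE 0.11, adjusted p = 6.4e-05 by edgeR).

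S100a1, a calcium sensor best known from muscle, stood at 36.1, 40.0, 48.4, 43.4 and 42.8 CPM under AL and at 27.4, 20.9, 25.6 and 19.6 CPM under DR. Every AL library was above every DR library. The mean fell from 42.1 ± 4.51 to 23.4 ± 3.73 CPM (± SD, n = 5 and 4; a log2 change of -0.85 with SE 0.12, adjusted p = 4.1e-04 by edgeR). S100a16, a widely expressed family member, stood at 139, 149, 174, 169 and 183 CPM under AL and at 105, 95.8, 116 and 101 CPM under DR. The groups again did not overlap, and the mean fell from 163 ± 18.3 to 104 ± 8.65 CPM (± SD, n = 5 and 4; a log2 change of -0.64 with SE 0.10, adjusted p = 7.2e-04 by edgeR). The calls of S100a14, S100a1 and S100a16 held in all 19 alternative settings that were run.

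S100a4, also known as fibroblast-specific protein 1 and made by many motile cells, had the largest fall among the called members. It stood at 521, 229, 403, 512 and 1132 CPM under AL and at 248, 294, 203 and 156 CPM under DR. The AL libraries spread widely, with replicate 5 far above the rest and replicate 2 inside the DR range, so that the groups overlapped. The mean fell from 559 ± 341 to 225 ± 59.6 CPM (± SD, n = 5 and 4; a log2 change of -1.31 with SE 0.39, adjusted p = 0.019 by edgeR). With AL replicate 5 left out its log2 change was -0.89 (adjusted p = 0.019). It did not pass when DR replicate 3 (0.056) or DR replicate 4 (0.063) was left out, nor with the replicate numbers as a block on replicates 1 to 4 (0.051), a setting that also leaves out AL replicate 5. Its transcripts share 47.3% of their 51-base stretches, the read length, with Gm42674, an overlapping gene model on the same strand whose symbol is not among those counted.

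Fibroblast markers as a sum were also lower in DR. Their summed level over 10 genes was 744, 485, 548, 694 and 885 CPM in AL replicates 1 to 5 and 177, 249.97, 203 and 206 CPM in DR replicates 1 to 4. The highest AL library was replicate 5 and the lowest replicate 2. The same held for S100a3, S100a4, S100a6, S100a10 and S100a11, for the sort marker Cd34 and for the summed bulge markers. For S100a1, S100a13, S100a14 and S100a16 the lowest AL library was replicate 1, and for S100a7a replicate 3. Within DR the fibroblast sum and S100a4 differed in order, replicate 1 having the lowest sum and the second highest S100a4. Most of that sum was Col6a1 (566 ± 144 CPM in AL, 178 ± 26.7 CPM under DR). Of the 6 tested fibroblast markers 3 fell (Col1a1, Col1a2 and Col6a1), 1 rose (Pdgfra) and 2 did not pass (Dcn and Fbn1). Of all tested genes 21.7% fell and 19.0% rose. The untested markers, with means under AL and DR, were Col3a1 (0.717 and 0.418 CPM), Lum (0.104 and 0.0979 CPM), Dpt (0.0488 and 0.118 CPM) and Mfap5 (0.00722 and 0.0749 CPM). No fibroblast marker was at 0 in all libraries, and the part of such cells in the S100a4 difference was not tested. In these bulk samples fewer cells of a type and less RNA per cell cannot be told apart.

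S100a13, a partner in the release of growth factors without a signal peptide, stood at 11.7, 14.9, 16.5, 17.9 and 17.2 CPM under AL and at 12.2, 10.5, 13.003 and 12.2 CPM under DR. AL replicate 1 lay inside the DR range and the other AL libraries lay above it. The mean fell from 15.6 ± 2.49 to 12.0 ± 1.03 CPM (± SD, n = 5 and 4; a log2 change of -0.39 with SE 0.14, adjusted p = 0.043 by edgeR). The call was lost in 14 of 19 alternative settings, with adjusted p-values from 0.011 to 0.12 over all of them.

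**Figure D2:**
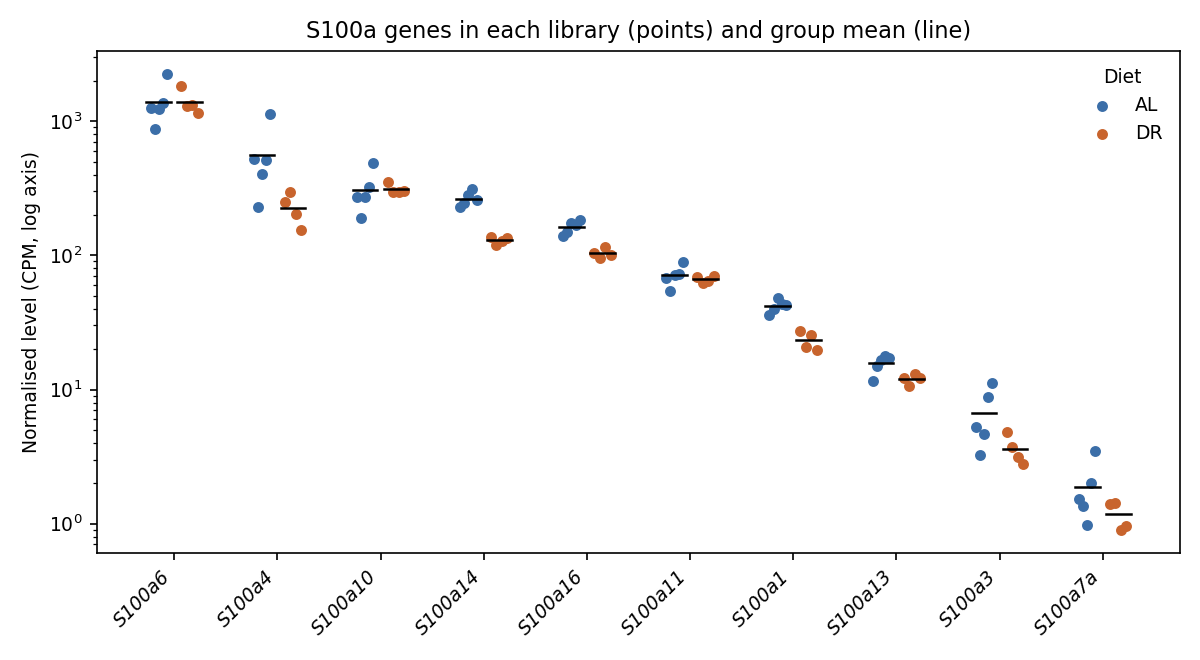
Level of the 10 tested S100a genes in each library on a log axis (CPM), AL in blue and DR in orange, with the group mean as a line. S100a14, S100a16 and S100a1 show separate groups, S100a6, S100a10 and S100a11 show overlapping groups with equal or near-equal means, and the highest AL point of S100a4 and S100a6 is replicate 5.

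The most abundant S100a gene did not pass. S100a6 (calcyclin), a calcium-binding protein common in proliferating cells and a marker of several stem cell niches, stood at 1249, 872, 1226, 1376 and 2263 CPM under AL and at 1841, 1288, 1314 and 1152 CPM under DR. The means were 1397 ± 519 and 1399 ± 303 CPM (± SD, n = 5 and 4; a log2 change of 0.00 with SE 0.25, adjusted p = 0.997 by edgeR). All DR libraries lay within the AL range, and AL replicate 5 was the highest of the 9.

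S100a10, which binds annexin A2 and carries it to the membrane, stood at 274, 191, 271, 323 and 487 CPM under AL and at 355, 297, 297 and 303 CPM under DR (a log2 change of 0.02 with SE 0.22, adjusted p = 0.96 by edgeR). All 4 DR libraries lay within the AL range. S100a11, a keratinocyte S100 that binds annexin A1, stood at 68.1, 54.1, 70.9, 72.2 and 89.4 CPM under AL and at 68.4, 62.1, 64.6 and 70.5 CPM under DR (a log2 change of -0.09 with SE 0.12, adjusted p = 0.57 by edgeR). Here too the DR libraries lay within the AL range. S100a11 shares 41.0% of the 51-base stretches of its transcripts with the pseudogenes Gm12854, Gm7665 and Gm29240, so that its reads may be lost or assigned to those copies.

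The low S100a genes did not pass. S100a3, a protein of the hair cuticle, was at 6.65 ± 3.28 CPM under AL and 3.61 ± 0.875 CPM under DR (± SD, n = 5 and 4; a log2 change of -0.88 with SE 0.34, adjusted p = 0.062 by edgeR); it did pass with upper-quartile scaling (0.047), with library size only (0.039), without AL replicate 2 (0.021) and by DESeq2 (0.030). S100a7a, the mouse relative of psoriasin, was at 1.87 ± 0.968 and 1.18 ± 0.281 CPM (a log2 change of -0.66, adjusted p = 0.16). S100a5 averaged 0.288 CPM under AL and 0.123 CPM under DR and was not tested.

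The inflammatory pair S100a8 and S100a9, the subunits of calprotectin that neutrophils and stressed keratinocytes make, was near the floor. S100a9 had 0, 6, 2, 0 and 0 reads under AL and 7, 7, 14 and 6 reads in DR, and S100a8 had at most 4 reads in any library. In CPM all DR libraries were above all AL libraries for S100a9, at a mean of 0.0460 CPM under AL and 0.295 CPM under DR; it fell below the filter, and with no filter its log2 fold change was 2.41 (SE 0.75, edgeR adjusted p = 0.030). Of 10 neutrophil markers none was tested and 3 (Ly6g, Ltf and Retnlg) had no read in any library; their summed level was 0.113 to 0.831 CPM under AL and 0.301 to 0.645 CPM under DR. The leukocyte and macrophage markers summed to 12.4 to 28.0 CPM under AL and 18.8 to 43.8 CPM under DR, most of it Cd68. Of the 4 tested 1 rose (Cd14), where 19.0% of all tested genes rose. None of the 10 was at 0 in all libraries, and their part in the S100a9 reads was not tested.

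Along chromosome 3 the genes that fell lie close together in the order of the members, and genes outside the set were not placed. In the order of the annotation the S100a members run S100a1, S100a13, S100a14, S100a16, S100a3, S100a4, S100a5, S100a6, S100a7a, S100a8 and S100a9, followed by the envelope genes and, beyond them, S100a11 and S100a10. The 5 called genes are among the first 6 of this run. The other is S100a3, which lies between S100a16 and S100a4 and did not pass, at a log2 change of -0.88. S100a1 lies on the minus strand and S100a13 on the plus strand, head to head, so that the 250 bases upstream of each start overlap by 104 bases and share one stretch of DNA. Those windows, with those of S100a4, which fell, and of its neighbour S100a6, which did not pass, are printed here from RefSeq (GRCm38.p6, another build than the mm9 of the count tables), each 5′ to 3′ on the strand of its gene, with motif matches on either strand in capitals. The motifs were TATAAA for the TATA box, then TGANTCA for the letters bound by AP-1, and finally CCACCC for the box bound by Krüppel-like factors.
S100a1, chr3:90514331-90514580, minus strand: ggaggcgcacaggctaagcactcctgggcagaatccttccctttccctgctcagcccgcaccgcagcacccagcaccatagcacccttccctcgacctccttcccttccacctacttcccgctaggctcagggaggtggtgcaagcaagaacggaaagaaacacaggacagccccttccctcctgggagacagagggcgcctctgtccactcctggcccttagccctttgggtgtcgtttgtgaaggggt
S100a13, chr3:90514185-90514434, plus strand: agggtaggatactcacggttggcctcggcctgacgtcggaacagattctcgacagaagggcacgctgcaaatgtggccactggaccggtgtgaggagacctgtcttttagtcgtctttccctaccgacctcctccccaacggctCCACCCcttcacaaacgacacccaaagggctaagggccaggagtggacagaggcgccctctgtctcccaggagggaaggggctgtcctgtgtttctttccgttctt
S100a4, chr3:90603520-90603769, plus strand: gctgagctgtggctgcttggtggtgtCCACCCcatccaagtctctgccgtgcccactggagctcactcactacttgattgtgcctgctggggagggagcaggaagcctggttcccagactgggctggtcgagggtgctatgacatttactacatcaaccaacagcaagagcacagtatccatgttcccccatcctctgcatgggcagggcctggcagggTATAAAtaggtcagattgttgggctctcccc
S100a6, chr3:90612644-90612893, plus strand: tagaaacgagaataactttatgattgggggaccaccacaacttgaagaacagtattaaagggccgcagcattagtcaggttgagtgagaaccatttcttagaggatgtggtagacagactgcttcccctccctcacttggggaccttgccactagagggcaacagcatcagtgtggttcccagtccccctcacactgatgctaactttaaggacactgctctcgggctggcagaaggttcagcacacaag
The S100a1 and S100a6 windows hold no match, that of S100a13 holds CCACCC, and that of S100a4 holds CCACCC as well as a TATA box. The CCACCC of S100a13 runs across the edge of the S100a1 window, which holds only part of it. A match is a description of letters, not of a binding site.

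Compared per kilobase of exon (GENCODE M21 exon models, not those used for the counting), the 3 highest members were S100a genes. S100a6 had 1022 CPM per kilobase under AL and 1023 in DR, S100a4 had 958 and 386, and S100a10 had 255 and 258. Of the envelope genes Lor was highest with 171 and 234 CPM per kilobase, with Sprr1a next under AL (73.7 and 61.9) and Lce1m next under DR (56.0 and 90.04). S100a6, S100a4 and S100a10 together made up 71.8% to 87.3% of the summed S100a CPM of a library.

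Loricrin (Lor), the main protein of the mature envelope, was the most abundant envelope gene. It stood at 391, 366, 428, 214 and 122 CPM under AL and at 282, 271, 711 and 399 CPM under DR. AL replicates 4 and 5 were the lowest of the 9 and DR replicate 3 was the highest, and the groups overlapped. The means were 304 ± 130.1 and 416 ± 205 CPM (± SD, n = 5 and 4; a log2 change of 0.45 with SE 0.38, adjusted p = 0.37 by edgeR).

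Flg2, a filaggrin relative of the upper epidermis, stood at 138, 97.9, 111, 41.9 and 37.0 CPM under AL and at 81.1, 109, 132 and 85.3 CPM under DR. AL replicates 4 and 5 were again the lowest, and the other libraries of both diets were mixed (a log2 change of 0.26 with SE 0.36, adjusted p = 0.59 by edgeR). Filaggrin itself (Flg) had 30.0, 34.4, 33.1, 7.35 and 4.44 CPM under AL and 5.07, 21.0, 25.1 and 18.3 CPM under DR (a log2 change of -0.33 with SE 0.60, adjusted p = 0.69 by edgeR). For Flg it was AL replicates 4 and 5 and DR replicate 1 that were low.

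The remaining envelope genes did not pass either. Involucrin (Ivl), an early scaffold, was at 19.4 ± 6.74 CPM under AL and 20.9 ± 5.34 CPM under DR, and Cnfn (cornifelin) at 16.04 ± 7.05 and 18.4 ± 3.71 CPM. The membrane-bound cross-linking enzyme Tgm1 was at 32.0 ± 9.42 and 36.5 ± 9.47 CPM, and Tgm3, the soluble one of the granular layer and hair, at 3.05 ± 1.32 and 2.85 ± 0.917 CPM (SD, n = 5 and 4 for each). The log2 changes were 0.11 with SE 0.26 for Ivl, 0.20 with SE 0.33 for Cnfn, 0.19 with SE 0.25 for Tgm1 and -0.10 with SE 0.34 for Tgm3. None of the 7 other barrier genes passed, with log2 fold changes from -0.33 to 0.45 and adjusted p-values from 0.37 to 0.84. None did at an unadjusted p under 0.05, by DESeq2 or by limma-voom.

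The Lce genes code for short proteins added to the envelope late, and lie in a cluster of near copies. Copies can exchange or lose reads: Lce members share a median of 19.1% and up to 48.0% of the 51-base stretches of their transcripts with another gene, 51 bases being the read length. Lce1a1 and Lce1a2, for example, hold this identical stretch from base 31 of either coding sequence (GENCODE M21), to which a read could not be assigned.
Lce1a1 and Lce1a2: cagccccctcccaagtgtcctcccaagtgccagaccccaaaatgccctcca
Lce1m and Lce6a share no such stretch. Single values of the other Lce genes are uncertain for this reason, and the family is described mainly by Lce1m, by counts and by its sum.

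Lce1m, the most abundant Lce gene, stood at 78.3, 56.3, 59.1, 52.7 and 19.2 CPM under AL and at 78.0, 72.9, 115 and 76.3 CPM under DR. Only AL replicate 1 reached the DR range. The means were 53.1 ± 21.4 and 85.4 ± 19.5 CPM (± SD, n = 5 and 4; a log2 change of 0.69 with SE 0.31, adjusted p = 0.096 by edgeR). Lce1m passed by DESeq2 (adjusted p = 0.049), in edgeR without AL replicate 1 (0.048) or AL replicate 5 (0.042), and with the replicate numbers as a block on replicates 1 to 4 (0.038), which also leaves out AL replicate 5.

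None of the 14 tested Lce genes passed, 6 with a log2 fold change above 0 and 8 below, from -0.38 to 0.83, with SEs of 0.31 to 0.87. At an unadjusted p under 0.05 and by DESeq2 1 did, Lce1m, and by limma-voom none. The Lce genes shared an order of libraries: AL replicate 5 was the lowest AL library for all 14, AL replicate 1 the highest AL library for all 14, and DR replicate 1 the lowest DR library for 13. Lce1d, for instance, stood at 4.98, 3.70, 2.48, 1.85 and 0.0753 CPM under AL and at 0.0360, 3.65, 3.19 and 2.84 CPM under DR. The exception in DR replicate 1 was Lce1m, at 78.0 CPM in that library. The other 13 tested Lce genes are given by their means in AL and DR, with the log2 change in parentheses; their edgeR adjusted p-values ran from 0.35 to 0.99. None passed. Over 19 alternative settings (18 for Lce1g) the sign differed from that on all libraries in 10 for Lce1a1 and Lce1i each. It did so in 4 for Lce1c and Lce1d each, and in 3 for Lce1l and Lce6a each. For Lce1b and Lce1e it was 2 each, for Lce1g 1, and for Lce1a2, Lce1f, Lce1h and Lce1j none. In order of level under AL, Lce1a1 averaged 9.45 and 9.42 CPM (-0.01), Lce1a2 averaged 9.11 and 7.10 CPM (-0.36), Lce1c averaged 7.43 and 7.08 CPM (-0.07) and Lce1b averaged 5.97 and 5.27 CPM (-0.18). Next in level, Lce1l averaged 3.75 and 4.21 CPM (0.17), Lce1f averaged 2.89 and 2.22 CPM (-0.38), Lce1d averaged 2.62 and 2.43 CPM (-0.11) and Lce6a averaged 1.97 and 1.84 CPM (-0.09). Among the lowest, Lce1i averaged 1.48 and 1.54 CPM (0.05), Lce1e averaged 1.19 and 1.08 CPM (-0.13), Lce1j averaged 0.698 and 0.919 CPM (0.39), Lce1h averaged 0.660 and 1.18 CPM (0.83) and Lce1g averaged 0.524 and 0.728 CPM (0.47). Of the 4 untested Lce genes, Lce3a and Lce3b had no read and Lce3c was the highest, at 0.199 CPM under AL and 0.238 CPM under DR.

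The Sprr genes code for cross-bridging proteins and are known to rise in injured and stressed epithelium. Sprr1a stood at 52.9, 69.6, 69.4, 86.7 and 18.5 CPM under AL and at 91.0, 24.5, 43.8 and 40.4 CPM under DR. AL replicate 5 was the lowest library and DR replicate 1 the highest, and the groups overlapped (a log2 change of -0.25 with SE 0.43, adjusted p = 0.67 by edgeR). Sprr1b stood at 14.9, 16.9, 17.6, 9.30 and 0.941 CPM under AL and at 6.90, 8.02, 11.2 and 7.67 CPM under DR (a log2 change of -0.50 with SE 0.56, adjusted p = 0.50 by edgeR). Here AL replicate 5 was below every DR library and AL replicates 1 to 3 were above all of them.

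Leaving out AL replicate 5 changed the Sprr calls. Without it Sprr1b (log2 fold change -0.80, edgeR adjusted p = 0.013), Sprr2h (-1.04, adjusted p = 0.046) and Sprr4 (-1.84, adjusted p = 0.0013) passed, all lower in DR; on all libraries none of the 5 tested Sprr genes did (adjusted p 0.083 to 0.68), by DESeq2 and limma-voom none did, and 1 (Sprr4) did at an unadjusted p under 0.05. Sprr4 averaged 0.419 CPM under AL and 0.145 CPM under DR, and Sprr2h 1.27 and 0.765 CPM. Sprr2g averaged 0.548 and 0.7099 CPM, with a log2 change of 0.36 and SE 0.63. With DR replicate 1 left out as well, a choice made after the values were seen, Sprr1a also passed (-0.93, edgeR adjusted p = 0.0062). In that setting 8 members in all were lower in DR and 1 higher (Lce1m), and no all-gene count is set beside them. With 1 library left out, 2674 to 3358 of all genes were lower and 2470 to 3044 higher, against 3349 and 2941 on all libraries.

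Stress-type keratins, several of which rise in injured epidermis as the Sprr genes do, were counted beside them. Of the 5 markers (Krt6a, Krt6b, Krt16, Krt17 and Krt75), none at 0 in all libraries, 1 fell (Krt16) and none rose. The shares of all tested genes were 21.7% and 19.0%. The summed level of the 5 markers was 1741 to 3021 CPM under AL and 1199 to 2179 CPM under DR. Most of it was Krt17 (means of 1735 and 1365 CPM, not passed). The part of these keratins in the Sprr values was not tested.

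Of the 11 untested Sprr genes the highest was Sprr2d, at 0.370 CPM under AL and 0.131 CPM under DR. Sprr3 had no read among the 268369783 gene counts of all libraries together, which allows up to 0.0112 CPM (3 counts, counting error only). Sprr2a1 also had none, but shares 96.2% of its 51-base stretches with other genes, chiefly Sprr2a2 and Sprr2a3, so its 0 does not show that it is silent. All 199 coding stretches of 51 bases in Sprr2a1 recur in Sprr2a2, the first of which is printed here.
Sprr2a1 and Sprr2a2: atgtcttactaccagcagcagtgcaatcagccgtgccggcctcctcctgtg

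Promoter windows were found for 49 of the 54 members in the RefSeq table (54 windows, some genes having several). In the 250 bases before the start, the AP-1 letters occurred on either strand in 9 of 14 Sprr windows, 4 of 8 windows of the other barrier genes, 2 of 15 S100a windows and 0 of 17 Lce windows, and in 6.75% of the windows of all genes. The TATA box occurred in 10 of 14 Sprr, 4 of 8 other barrier, 3 of 15 S100a and 3 of 17 Lce windows, and in 12.4% of all windows. CCACCC occurred in 5 of 14 Sprr, 5 of 8 other barrier, 8 of 15 S100a and 0 of 17 Lce windows, and in 28.1% of all windows. The glucocorticoid response element, searched as a palindromic consensus, occurred in no member's window and in 0.387% of all windows, which says only that its letters are not in these windows. The upstream windows of Lor and Sprr1b show the motifs in place, marked in capitals as above.
Lor, chr3:92083143-92083392, minus strand: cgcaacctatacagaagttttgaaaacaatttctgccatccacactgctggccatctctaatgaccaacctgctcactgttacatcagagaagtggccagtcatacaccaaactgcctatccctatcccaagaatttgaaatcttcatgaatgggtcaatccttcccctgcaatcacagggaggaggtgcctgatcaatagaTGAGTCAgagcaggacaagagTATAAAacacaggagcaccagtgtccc
Sprr1b, chr3:92438780-92439029, minus strand: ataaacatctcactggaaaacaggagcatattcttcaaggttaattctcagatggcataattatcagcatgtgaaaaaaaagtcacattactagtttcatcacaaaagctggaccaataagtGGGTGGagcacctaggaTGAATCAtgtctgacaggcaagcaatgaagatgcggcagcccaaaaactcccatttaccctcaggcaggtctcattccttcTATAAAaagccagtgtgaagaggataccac
In both windows the AP-1 letters lie upstream of the TATA box, and that of Sprr1b also holds CCACCC, on the opposite strand.

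The envelope genes varied more between libraries of 1 diet than the S100a genes did. The coefficient of variation within diets that edgeR fits, with counting noise taken off, had a median of 0.63 for the Lce genes, 0.57 for the Sprr genes and 0.35 for the other barrier genes, against 0.20 for the S100a genes and 0.17 for all tested genes. These medians were not matched for level. AL means ran from 0.524 to 53.1 CPM for tested Lce genes and from 1.87 to 1397 CPM for tested S100a genes. AL replicate 5 was the lowest AL library for all 26 tested envelope genes and for none of the 10 S100a genes, for 7 of which it was the highest. How often it was lowest or highest over all tested genes was not counted. A simple summary is the family sum. The Lce sum was 24.7 CPM in AL replicate 5, 93.1 to 161 CPM in the other AL libraries and 92.3 to 182 CPM under DR. The Sprr sum was 19.6 CPM in AL replicate 5, 72.6 to 99.5 CPM in the other AL libraries and 34.8 to 100.8 CPM under DR.

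**Figure D3:**
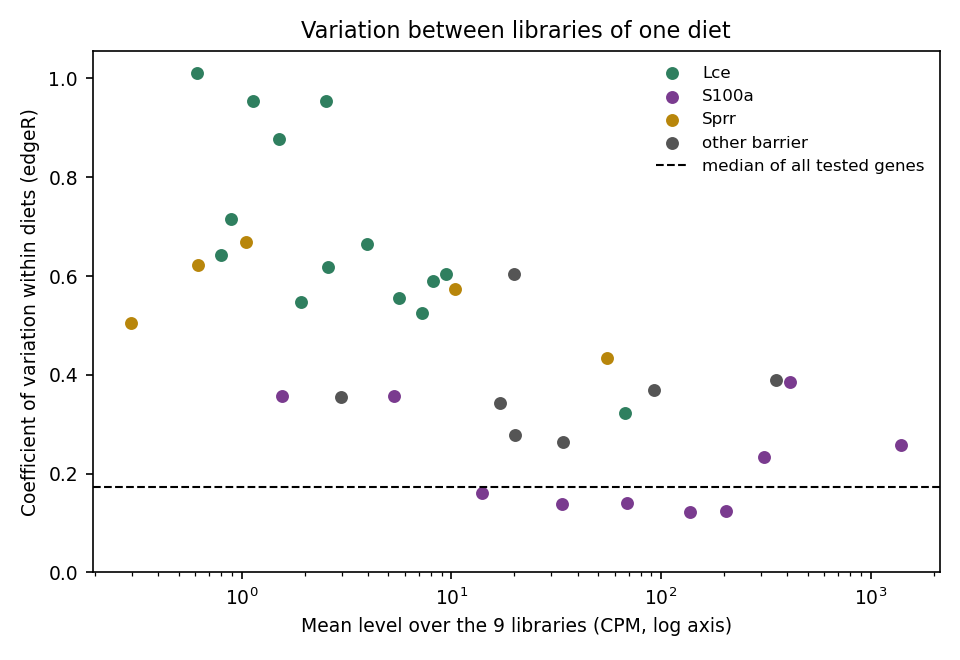
Coefficient of variation between libraries of 1 diet, as fitted by edgeR, against the mean level over the 9 libraries (CPM, log axis) for the 36 tested members; the dashed line is the median of all tested genes, 0.17. The Lce and Sprr points lie above the line at every level, and the S100a points with the smallest variation lie just below it.

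Markers of suprabasal epidermal cells were low in some of the same libraries. The summed level of 10 such markers, among them Krt1 and Krt10, was 6462, 6119, 7516, 3528 and 4113 CPM under AL and 3299, 5067, 8036 and 5624 CPM under DR. The 3 lowest were AL replicates 4 and 5 and DR replicate 1, the libraries with the lowest Flg, and the highest was DR replicate 3, which also had the highest Lor. The Sprr sum had another order. It was low in AL replicate 5 (19.6 CPM) but highest in DR replicate 1 (100.8 CPM) and, within AL, in replicate 4 (99.5 CPM). Of the 10 suprabasal markers, 2 rose (Sbsn and Krtdap), 1 fell (Calml3) and 7 did not pass. Of all tested genes 19.0% rose and 21.7% fell. No suprabasal marker was at 0 in all libraries, and Krt10 averaged 1896 ± 811 CPM under AL and 1929 ± 863 CPM under DR. The part of such cells in the envelope values was not tested.

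**Figure D4:**
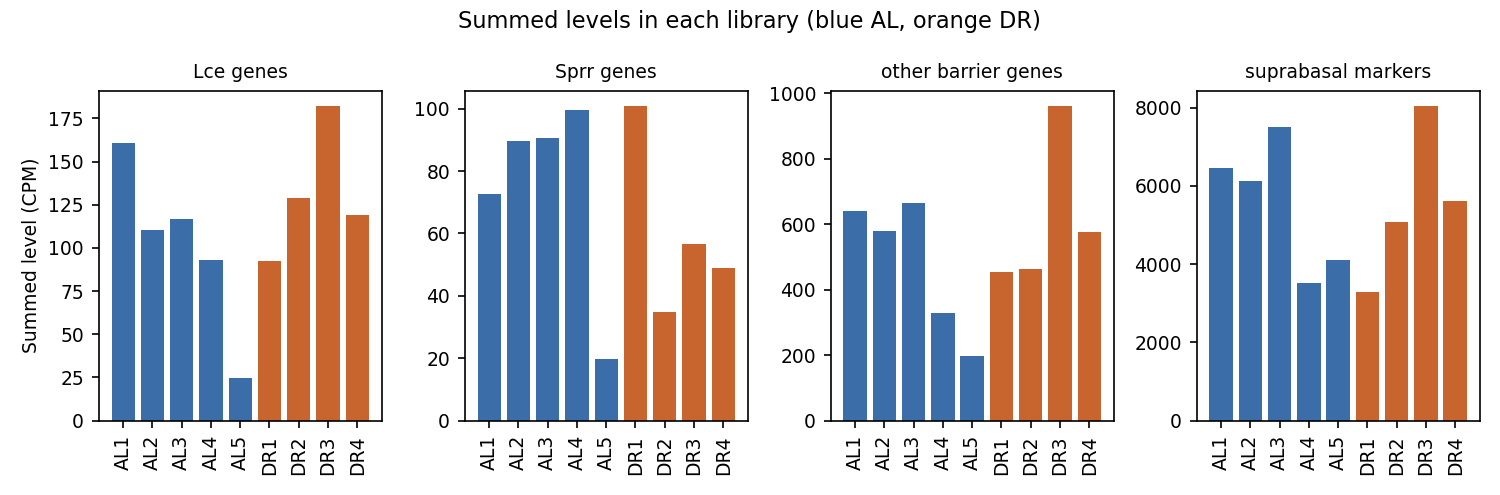
Summed level (CPM) of the Lce genes, the Sprr genes, the other barrier genes and 10 suprabasal keratinocyte markers in each library, AL in blue and DR in orange. AL replicate 5 is lowest for the first 3 sums, DR replicate 3 is highest for the Lce, other barrier and suprabasal sums, and DR replicate 1 is highest for the Sprr sum alone.

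Other genes of the barrier were counted as whole lists, formed by pathway. Among 14 envelope proteins coded outside the complex, all tested, 6 rose and 1 fell, against 40.7% of all tested genes called. The plakin Ppl (periplakin) rose from 403 to 725 CPM (a log2 change of 0.85 with SE 0.10, adjusted p = 1.1e-04 by edgeR), Krtdap rose by 0.58 and Sbsn by 0.39 on the log2 scale, while Tgm5, another epidermal transglutaminase, fell from 1055 to 245 CPM (a log2 change of -2.11 with SE 0.26, adjusted p = 1.8e-04 by edgeR). Tgm5 thus fell where its relatives Tgm1 and Tgm3 did not pass; the difference between them was not tested. Of 12 further genes of the complex 7 were tested and 1 passed: Tchh (trichohyalin), which rose from 17.2 to 42.6 CPM (a log2 change of 1.31 with SE 0.17, adjusted p = 2.7e-04 by edgeR). Tchh is also a marker of the inner root sheath. Of 7 tested sheath and hair shaft markers 2 rose (Tchh and Krt31) and 1 fell (Krt28), against 19.0% and 21.7% of all tested genes. None of the 11 counted was at 0 in all libraries, they summed to 156 to 198 CPM under AL and 164 to 232 CPM under DR, most of it Gata3 (152 and 144 CPM, not passed), and their part in the Tchh difference was not tested.

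Of 15 barrier lipid genes 3 rose and 1 fell. Degs1, which desaturates dihydroceramide, rose from 169 to 444 CPM (a log2 change of 1.40 with SE 0.12, adjusted p = 2.1e-05 by edgeR), the epidermal lipoxygenase Aloxe3 from 20.8 to 51.2 CPM (1.30, SE 0.22, adjusted p = 0.0011) and Abhd5 by 0.33, and the elongase Elovl1 fell by 0.30 on the log2 scale. Of 13 tested proteases and inhibitors of cornification 3 rose (Ctsl by 1.03, the kallikrein inhibitor Spink5 by 0.79 and Furin by 0.41 on the log2 scale) and Capn1 fell by 0.40. Of 20 transcription factors of epidermal differentiation 5 rose and 1 fell; Ovol2 (0.98), Grhl1 (0.89) and Ovol1 (0.82) rose and Hopx fell by 0.63 on the log2 scale. The called share of each of these 3 lists was below the 40.7% of all tested genes.

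Among 13 S100 partner proteins 2 rose and 5 fell, where 19.0% of all tested genes rose and 21.7% fell. Anxa6, a membrane-binding annexin, fell from 171 to 52.5 CPM (a log2 change of -1.70 with SE 0.11, adjusted p = 3.8e-06 by edgeR), and Cacybp, which binds S100a6, fell by 0.37 on the log2 scale. The receptors Tlr4 (1.63, adjusted p = 0.0036) and Ager (1.38, adjusted p = 0.0037), which bind extracellular S100 proteins, rose, from 1.28 to 3.92 and from 2.09 to 5.46 CPM. Anxa2, the partner of S100a10, did not pass (1192 and 1121 CPM; log2 fold change -0.09, SE 0.23, adjusted p = 0.79), nor did S100a10. Outside the S100a series S100b, a marker of glia and pigment cells, fell from 0.978 to 0.286 CPM (a log2 change of -1.76 with SE 0.31, adjusted p = 0.0014 by edgeR). Of 5 tested melanocyte markers 3 fell (Dct, Tyrp1 and Kit) and Mitf and Sox10 did not pass, where 21.7% of all tested genes fell. The summed marker level was 109 to 227 CPM under AL and 120 to 172 CPM under DR, most of it Mitf. No melanocyte marker was at 0 in all libraries, and their part in the S100b difference was not tested.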

How the data were processed

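RNA of sorted CD34+ alpha6+ cells was sequenced as single reads of 51 cycles from TruSeq RNA v2 libraries, per the labels' protocols. The authors deposited raw counts of reads for each gene symbol, not normalized. The submitters' processing notes name the mm9 build and, with no order or role, HTSeq 0.11.2, TopHat2 2.1.0, Bowtie and FastQC 0.11.5. The sources used here give no annotation, strand setting or rule for multiple mapping. In each file 6 lines that name no gene held 25.9% to 30.7% of the counts and were left out.

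The test was edgeR 4.0.16 (R 4.3.3) on all 35006 symbols: filterByExpr by diet, TMM, a quasi-likelihood fit with diet as its single term, and p-values adjusted by Benjamini-Hochberg over 15447 tested genes. SEs are those implied by the F statistic. The fit was checked on simulated counts of 15447 genes, 200 of them changed. It recovered 59% of 2-fold and 23% of 1.5-fold changes, and 6.82% of its calls were false. A gene that did not pass may therefore still differ. The 16 within-diet library pairs differed beyond sampling noise (chi-square divided by its degrees of freedom: 24.6 to 109.6). Alternatives included DESeq2 1.42.0 and limma 3.58.1. Values in all 9 libraries are given for each called member and the 6 most abundant tested members that did not pass; from each pathway list up to 4 genes with the smallest p are named. Other names were chosen after their values were seen, and members and lists were chosen with earlier results of these data known. Share of 51-base stretches was computed on GENCODE M21 transcripts, either strand. No protein sequence was used here.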

Additional observations from a re-analysis of the deposited data

Results flagged for a closer look

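In 72 groups of values (36 tested members in each diet) 3 values stood apart from the rest of their group by Dixon's test; chance flags about 1 in 20 groups. Tgm1 was at 15.7 CPM in AL replicate 5, against 33.4 to 39.8 CPM in the other AL libraries. S100a10 was at 355 CPM in DR replicate 1, against 297 to 303 CPM in the other DR libraries. Lce1m was at 115 CPM in DR replicate 3, against 72.9 to 78.0 CPM in the other DR libraries.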

How the results depend on the processing

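The count of members lower in DR was 5, and 3 to 7 when 1 library was left out; it was 3 at an adjusted p of 0.01 and 8 with both AL replicate 5 and DR replicate 1 left out, an alternative chosen after seeing the data. The count higher in DR was 0, and 0 to 1 when 1 library was left out. It was 1 with no filter (S100a9), by DESeq2, with the replicate block and with those 2 libraries left out (Lce1m). At an adjusted p of 0.01, 1866 of all genes were higher and 2071 lower, against 2941 and 3349. With 1 library left out, 2470 to 3044 of all genes were higher and 2674 to 3358 lower. Of 677 values of single members over 19 settings, 641 kept their side of the threshold, 17 lost and 19 gained a call, and none with a call changed sign. Scaling by library size only moved the median of all genes by -0.06. The labels do not say that replicate numbers pair the samples. Same-numbered libraries correlated at -0.01 to 0.28. AL replicate 1 went best with DR replicate 2 (0.46) and AL replicate 4 with DR replicate 1 (0.33). AL replicates 2 and 3 went best with the DR replicate of the same number (0.14 and 0.28). These few correlations cannot decide whether the numbers pair the samples. With the replicate block on replicates 1 to 4, which also drops AL replicate 5, 6 members were lower and 1 higher. No all-gene count is set beside these. SEs of the log2 changes ran from 0.25 to 0.87 for the envelope genes and from 0.10 to 0.39 for the S100a genes; how far depth or the number of libraries sets the calls was not tested.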
